A study of Mus musculus with 8 samples.

Results

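The chemokine ligands are a family of small secreted proteins, and 34 of their genes could be read on the arrays, of 19938 genes with a value in all. They were chosen by name: every gene whose symbol is Ccl or Cxcl followed by a number, with any suffix letter, together with Xcl1 and Cx3cl1, as long as a probe set pointed to that gene alone. This gave 19 CC ligands, 13 CXC ligands, Xcl1 and Cx3cl1. The brightest probe set stood for a gene, and only Ccl19 and Ccl25 had more than 1. The ligands of the Ccl21 and Ccl27 groups shared their 7 probe sets with near-identical copies and were not analysed here, and the platelet chemokines Pf4 and Ppbp, whose symbols fall outside the rule, are given separately.

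The arrays, of the Affymetrix mogene 1.0 ST type, measured RNA of dendritic cells sorted by flow cytometry from 4 mice. There were 4 arrays of bone marrow cells labelled as myeloid dendritic cells and 4 arrays of spleen cells labelled as classical dendritic cells, 1 of each from every mouse. All mice were 8 weeks old and of genotype CX3CR1-gfp/+, so 1 of the 2 alleles of Cx3cr1, the receptor of the ligand Cx3cl1, carried green fluorescent protein in bone marrow and spleen alike. Neither the sorting markers nor the strain of the mice is stated in the labels.

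Chemokines guide the movement of leukocytes by binding receptors that couple to G proteins. They are named for the spacing of their first cysteines: CC, CXC, CX3C and, for Xcl1, C. Dendritic cells and other myeloid cells make inflammatory chemokines that call in monocytes, neutrophils, T cells and natural killer cells, and they respond to homing chemokines such as Cxcl12, which holds leukocytes in the marrow. Values are array intensities, and a log2 fold change is bone marrow minus spleen on the log2 intensity scale, with limma's standard error (SE) and 4 arrays per tissue throughout. A gene was called where limma's p, adjusted by Benjamini-Hochberg over all 19938 genes, was below 0.05.

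Of the 34 ligands, 12 were higher in bone marrow, 1 was lower and 21 did not pass the threshold. Over all genes tested, 9.26% were called higher in bone marrow and 9.2% lower, so the share of ligands called higher (35.3%) lay above the background and the share called lower (2.94%) below it. The higher ligands were Ccl6, Ccl9, Ccl3, Cxcl10, Ccl24, Cxcl16, Cxcl2, Ccl2, Cxcl12, Ccl4, Cxcl14 and Ccl20, and the lower one was Ccl5. Most differences were small. Calls that were also at least 2-fold comprised Ccl6 and Ccl9 among the higher ligands (background 2.02%) and Ccl5 as the lower one (background 1.49%). The median log2 fold change was 0.12 over the 34 ligands and -0.01 over all genes. Among the ligands, 12 had all 4 bone marrow arrays above all 4 spleen arrays (background 10.4%) and 2, Ccl5 and Ccl19, had all of them below (background 10.2%). Cells and RNA per cell cannot be told apart in such bulk samples: a lower intensity can mean fewer cells of a kind or less RNA in each.

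**Figure D1:**
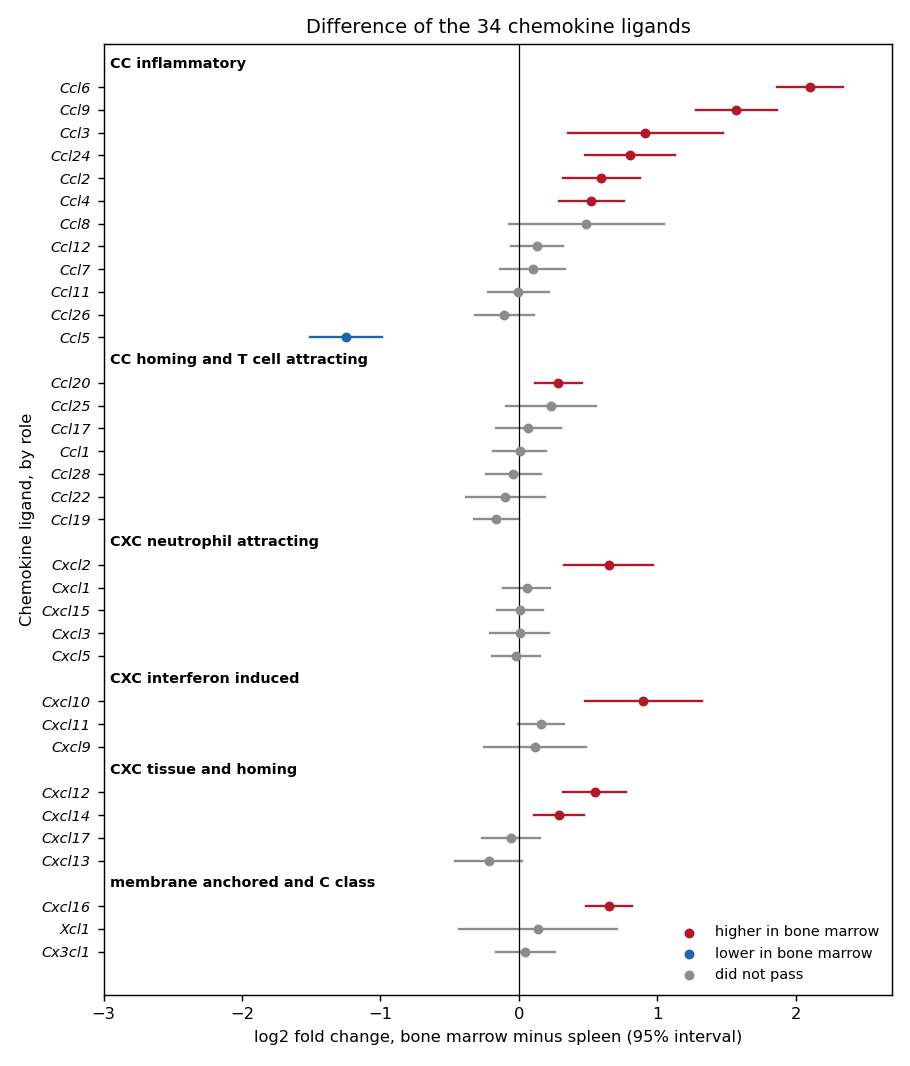
Log2 fold change of each of the 34 chemokine ligands, bone marrow minus spleen, with its 95% interval from limma (4 arrays per group), grouped by role. The 12 ligands called higher stand right of 0, led by Ccl6 and Ccl9, and Ccl5 is the 1 ligand called lower.

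Markers of the labelled cell types and of other cells are given first, from lists chosen with earlier results of these data known. Of 8 genes listed for dendritic cell identity, 6 were lower in bone marrow and none higher. The lower ones were Zbtb46, Flt3, Itgax, Dpp4, Kit and Spint1, and H2-Ab1 and Cd74 did not pass. Zbtb46, a transcription factor of classical dendritic cells, averaged 214 in bone marrow, against 520.0 in spleen (all averages below are geometric means of 4 arrays), and H2-Ab1, a class II chain, averaged 15354 in bone marrow, against 14678 in spleen (limma adjusted p = 0.692). Markers of other cells moved with the tissue: of the neutrophil markers 12 of 12 were higher in bone marrow, with summed intensities of 23811 to 31847 in bone marrow arrays and 2139 to 2524 in spleen arrays. Of 7 measured monocyte markers 6 were higher (sums of 15811 to 18963 in bone marrow and 3730 to 4655 in spleen), and of 11 macrophage markers 8 were higher (21813 to 31335 in bone marrow and 3739 to 4411 in spleen), none of either list being lower. Of 10 T cell and NK cell markers 5 were lower in bone marrow and none higher (1380 to 1870 in bone marrow, 3267 to 3523 in spleen). Klrd1 (661 in bone marrow, 1818 in spleen) and Cd5 (172 and 600) had the largest differences in intensity. Ncr1, Klrb1c, Gzma, Nkg7 and Il2rb did not pass. Of the classical dendritic cell subset lists, the cDC1 markers were called higher for 1 and lower for 4 of 8, and the cDC2 markers higher for 3 and lower for 3 of 8. Xcr1, a defining cDC1 gene and the receptor of the ligand Xcl1, was 11.2-fold lower in bone marrow (limma adjusted p = 3.45e-07). Among the rest, B cell markers were called higher for 2 and lower for 4 of 8, erythroid markers higher for 5 of 6, basophil, mast cell and eosinophil markers higher for 6 of 8, plasmacytoid markers higher for 1 and lower for 3 of 7, and stromal and endothelial markers higher for 2 and lower for 1 of 10. The part of these other cells in the ligand differences below was not tested.

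The arrays carry no detection call. As a guide to dimness, 95% of the 1027 olfactory receptor genes, which immune cells are not known to use, had a mean log2 intensity below 6.59, an intensity of 96.1. The mean of 21 ligands lay above this level and that of 13 lay at or below it. Of the 12 ligands called higher, 9 lay above it, and Ccl20, Cxcl12 and Cxcl2 lay at or below it. The mean is taken over both tissues, and Ccl24 and Cxcl14 lay above the level only through bone marrow. Their spleen arrays, at 62.6 to 90.0 for Ccl24 and 79.1 to 93.8 for Cxcl14, were all below 96.1. For these 2 ligands the level therefore does not speak for the call. A fold change is compressed toward 0 where the gene is dim.

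The CC ligands of the inflammatory receptors held the largest differences. Of 12 such ligands, 6 were higher in bone marrow (Ccl6, Ccl9, Ccl3, Ccl24, Ccl2 and Ccl4), Ccl5 was lower and 5 did not pass. The median log2 fold change of the 12 was 0.51.

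Ccl6 is a ligand of Ccr1 that mouse myeloid cells make. Its intensity was 6038, 5804, 5418 and 5106 in bone marrow arrays 1 to 4, against 1470.5, 1051, 1271 and 1454 in spleen arrays 1 to 4. The bone marrow arrays lay far above the spleen arrays and varied little among themselves. Ccl6 was 4.29-fold higher in bone marrow (limma log2 difference 2.10 ± 0.11 SE, adjusted p = 2.99e-08). Ccl9, another mouse ligand of Ccr1, had 820.5, 681, 712 and 657 in bone marrow, against 269, 217, 189 and 304 in spleen. No spleen array reached the lowest bone marrow array, and Ccl9 was 2.97-fold higher in bone marrow (1.57 ± 0.14, limma adjusted p = 2.48e-06). Both calls held in every alternative, with log2 fold changes of 2.00 to 2.16 for Ccl6 and of 1.45 to 1.68 for Ccl9.

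**Figure D2:**
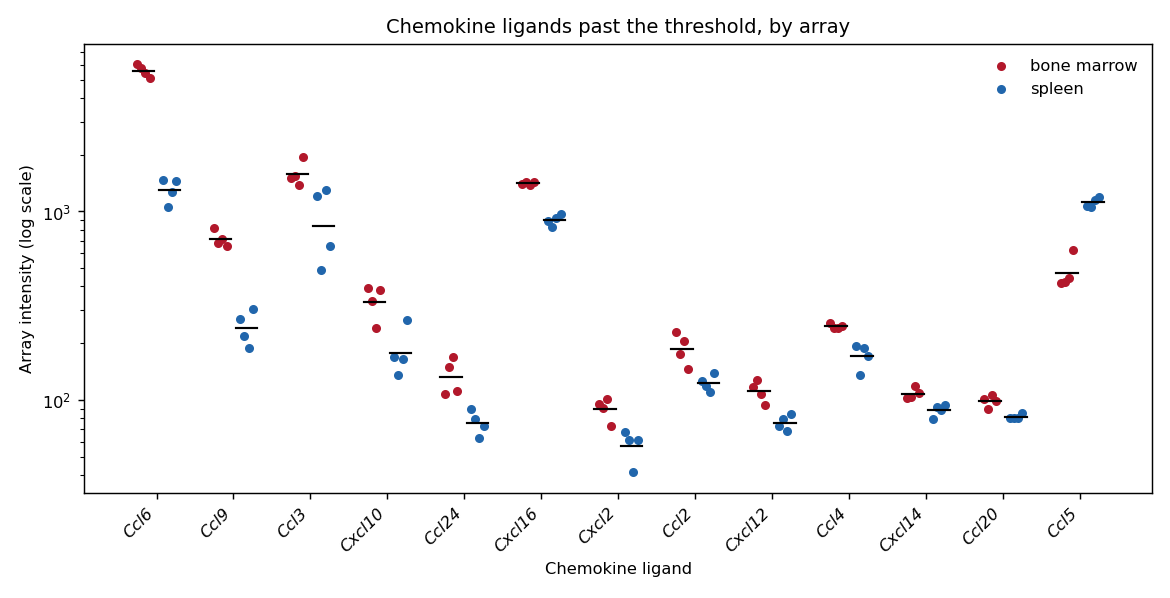
Array intensity, on a log scale, of the 13 chemokine ligands past the threshold, ordered by log2 fold change. Each point is 1 array (bone marrow left, spleen right, 4 each) and the black line is the geometric mean. Apart from Cxcl10, where 1 spleen array lies above 1 bone marrow array, the groups do not overlap.

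Ccl6 and Ccl9 are neighbours on chromosome 11, and their promoters, shown because the 2 genes moved together, resemble each other around the transcription start. The letters are from RefSeq (build GRCm38.p6), 250 bases before to 50 after the start, 5′ to 3′ on the strand of the gene, which is the minus strand for both: chr11:83593038-83593337 for Ccl6 and chr11:83578587-83578886 for Ccl9. The capitals mark the best local alignment of the 2 promoters.
Ccl6: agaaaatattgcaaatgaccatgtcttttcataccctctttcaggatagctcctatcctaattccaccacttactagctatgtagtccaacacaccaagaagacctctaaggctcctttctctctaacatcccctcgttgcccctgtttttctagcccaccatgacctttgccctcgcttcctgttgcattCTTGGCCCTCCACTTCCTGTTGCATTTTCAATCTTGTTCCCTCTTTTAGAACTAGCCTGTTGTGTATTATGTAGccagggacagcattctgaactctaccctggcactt
Ccl9: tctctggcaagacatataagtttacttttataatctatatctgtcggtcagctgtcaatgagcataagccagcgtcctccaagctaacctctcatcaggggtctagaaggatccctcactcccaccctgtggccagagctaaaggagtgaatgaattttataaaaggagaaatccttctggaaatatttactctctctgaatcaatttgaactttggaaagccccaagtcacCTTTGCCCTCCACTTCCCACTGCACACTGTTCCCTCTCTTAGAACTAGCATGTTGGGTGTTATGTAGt
The aligned stretch held 58 identical bases in 74 alignment columns (78.4%), and its score ranked 4 among the 253 pairs of the 23 ligands with a promoter in the table. The stretch begins 59 bases before the start of Ccl6 and 18 bases before that of Ccl9.

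Ccl5, a chemokine that T cells and dendritic cells make, went the other way. It had 419, 420.2, 446 and 623 in bone marrow arrays 1 to 4, against 1066, 1061, 1152 and 1199.9 in spleen arrays 1 to 4. Bone marrow array 4 stood above the other 3 of its group, yet the groups did not overlap. Ccl5 was 2.38-fold lower in bone marrow (limma log2 difference -1.25 ± 0.12 SE, adjusted p = 7.03e-06), and lower in 4 of 4 mice. Of 10 T cell and NK cell markers 5 were lower in bone marrow and 5 did not pass. Of 8 dendritic cell identity genes 6 were lower, as were 10 of 12 genes of dendritic cell maturation, and none was higher. The part of T cells, NK cells or dendritic cells in the Ccl5 difference was not tested.

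Ccl3 and Ccl4, the macrophage inflammatory proteins, were both higher in bone marrow but unevenly steady. Ccl3 had 1510.4, 1540.4, 1389 and 1958 in bone marrow arrays 1 to 4, against 1206, 489, 1301 and 657 in spleen arrays 1 to 4. Spleen arrays 1 and 3 came close to the bone marrow arrays, while spleen arrays 2 and 4 were far lower, which gave Ccl3 a spread of 0.68 (SD of log2 intensity) in spleen. Its 1.88-fold difference (0.91 ± 0.26 SE, limma adjusted p = 0.0252) lost its call without bone marrow array 4 (adjusted p = 0.0721), spleen array 2 (0.0562) or spleen array 4 (0.0706). Ccl4 had 254, 242, 239.8 and 245 in bone marrow, against 194, 135, 189 and 170.5 in spleen. Here too spleen arrays 2 and 4 were the lowest, and Ccl4 was 1.44-fold higher in bone marrow (0.53 ± 0.11 SE, limma adjusted p = 0.0034).

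Ccl2, the main ligand of Ccr2 and an attractant of monocytes, had 228, 174, 206 and 146 in bone marrow arrays 1 to 4, against 126, 119, 110.2 and 139.7 in spleen arrays 1 to 4. The groups came within a few intensity units of each other without overlapping, and Ccl2 was 1.51-fold higher in bone marrow (0.60 ± 0.13 SE, limma adjusted p = 0.00492). Ccl24, an eotaxin that attracts eosinophils through Ccr3, had 107, 149.6, 169 and 112 in bone marrow, against 90.0, 79.3, 62.6 and 73.0 in spleen. All bone marrow arrays were above all spleen arrays, and Ccl24 was 1.75-fold higher there (0.80 ± 0.15 SE, limma adjusted p = 0.00186). Basophil, mast cell and eosinophil markers summed to 1479, 1073, 2712 and 1836.5 in the same bone marrow arrays, against 614, 609, 520.0 and 587 in spleen. In bone marrow their sum was lowest in array 2, where Ccl24 was not lowest. In spleen the arrays ranked in the same order for both. The part of these cells in the Ccl24 difference was not tested.

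The other CC ligands of this role did not pass. Ccl7 and Ccl12, which share Ccr2 with Ccl2, had log2 fold changes of 0.10 (95% interval -0.13 to 0.34) and 0.13 (-0.06 to 0.32), and the eotaxins Ccl11 and Ccl26 had -0.0040 (-0.23 to 0.22) and -0.10 (-0.32 to 0.11). Ccl8, a monocyte attractant, was set apart by 1 array: it had 42.0, 117, 50.03 and 42.3 in bone marrow arrays 1 to 4, against 43.0, 38.5, 35.7 and 45.2 in spleen arrays 1 to 4. Bone marrow array 2 was high, and the other 3 bone marrow arrays lay near the spleen arrays. The log2 fold change of Ccl8 was 0.49 (-0.07 to 1.05, limma adjusted p = 0.27) and 0.14 without bone marrow array 2. The 11 macrophage markers, Vcam1 among them, summed to 23315, 31335, 27653 and 21813 in bone marrow, against 4286, 3739, 4411 and 3744 in spleen. Their sum was highest in bone marrow array 2 as well, and the part of these cells in the Ccl8 value was not tested.

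The ligand genes were also set out in chromosome order. The RefSeq gene table (GRCm38.p6) places Ccl5, Ccl9, Ccl6, Ccl3 and Ccl4 next to each other on chromosome 11, with no other protein-coding gene between them. In this run of 5 all were called, 4 higher and Ccl5, at its end, lower. A second run on the same chromosome, of Ccl2, Ccl7, Ccl11, Ccl12, Ccl8 and Ccl1, had 1 call among its 6 genes, that of Ccl2. On chromosome 8 none of the neighbours Ccl22, Cx3cl1 and Ccl17 was called.

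**Figure D3:**
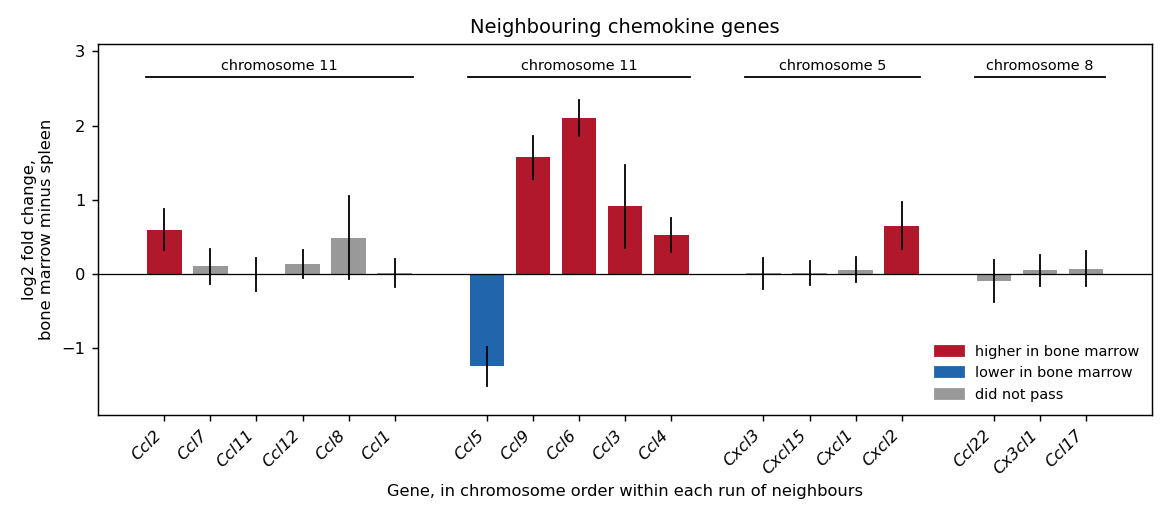
Log2 fold change, bone marrow minus spleen, of ligand genes in runs of at least 3 neighbours, in chromosome order within each run. Bars start at 0, black lines are limma's 95% intervals (4 arrays per group). With all arrays, the run from Ccl5 to Ccl4 on chromosome 11 has a call at every gene, with Ccl5 alone below 0. The call of Ccl3 was lost when certain single arrays were left out. The run on chromosome 8 has no call.

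Among the CXC ligands of Cxcr2, which attract neutrophils, Cxcl2 alone of 5 was called. It had 95.1, 90.7, 101 and 72.8 in bone marrow arrays 1 to 4, against 67.8, 61.5, 41.3 and 61.0 in spleen arrays 1 to 4. All values were dim, and the lowest bone marrow array was just above the highest spleen array. Cxcl2 was 1.57-fold higher in bone marrow (limma log2 difference 0.65 ± 0.15 SE, adjusted p = 0.00697). Cxcl1 had a log2 fold change of 0.06 (95% interval -0.11 to 0.23), Cxcl3 0.01 (-0.20 to 0.22), Cxcl5 -0.02 (-0.19 to 0.15) and Cxcl15 0.01 (-0.16 to 0.17). The difference between Cxcl2 and each of its close relatives was tested itself: the log2 ratio of Cxcl2 to Cxcl1 was -0.69 ± 0.21 (SD, n = 4) in bone marrow and -1.28 ± 0.28 in spleen, and that to Cxcl3 was 0.87 ± 0.14 in bone marrow and 0.23 ± 0.36 in spleen (exact permutation test over arrays, two-sided p = 0.0286 for each). This is the smallest p that 4 against 4 arrays can give, it is also 0.0286 after Benjamini-Hochberg adjustment over the 4 ratios computed, and the ratios were picked after the values were seen. The test shuffled arrays as if unpaired, although each mouse gave an array of both tissues. A permutation within the 4 mice was not run and could not give so small a p. Bone marrow arrays also held the higher neutrophil markers, and their part in the Cxcl2 difference was not tested.

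The promoters of these 3 genes are shown because they share a motif while Cxcl2 alone was called. A form of the NF-kB site, GGGA, any base and TTTCC in 1 run, was searched on both strands and is in capitals. The promoters run 5′ to 3′ on the plus strand of chromosome 5 (RefSeq, GRCm38.p6, 250 bases before to 50 after the start), at chr5:90903649-90903948 for Cxcl2, chr5:90890995-90891294 for Cxcl1 and chr5:90785851-90786150 for Cxcl3.
Cxcl2: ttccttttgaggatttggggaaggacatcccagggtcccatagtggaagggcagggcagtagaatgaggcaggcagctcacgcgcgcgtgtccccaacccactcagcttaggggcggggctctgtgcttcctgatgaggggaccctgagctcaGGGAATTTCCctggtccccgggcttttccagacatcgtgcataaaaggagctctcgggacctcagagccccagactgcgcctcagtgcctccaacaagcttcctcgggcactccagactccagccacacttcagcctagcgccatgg
Cxcl1: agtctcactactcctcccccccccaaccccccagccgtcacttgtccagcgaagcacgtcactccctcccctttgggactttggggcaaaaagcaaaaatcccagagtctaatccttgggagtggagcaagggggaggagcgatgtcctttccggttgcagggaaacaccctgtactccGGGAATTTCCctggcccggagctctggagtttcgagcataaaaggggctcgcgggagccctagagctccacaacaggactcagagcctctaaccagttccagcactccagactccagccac
Cxcl3: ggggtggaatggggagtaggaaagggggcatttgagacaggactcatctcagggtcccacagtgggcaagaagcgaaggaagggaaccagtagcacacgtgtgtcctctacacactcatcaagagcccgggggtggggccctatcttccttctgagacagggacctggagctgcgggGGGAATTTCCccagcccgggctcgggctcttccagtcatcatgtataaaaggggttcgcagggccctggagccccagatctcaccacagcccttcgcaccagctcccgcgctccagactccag
Each holds the same 10 letters, GGGAATTTCC, once, beginning 97 bases before the start of Cxcl2, 71 before that of Cxcl1 and 73 before that of Cxcl3. Among the 23 ligands with a promoter in the table, no other held the motif, which occurred in 0.411% of the 32851 promoters of the table. By alignment score, which grows with the length aligned, their pairs ranked 1 to 3 of the 253, with 189 identical bases in 282 alignment columns (67.0%) for Cxcl2 and Cxcl3, 128 in 176 (72.7%) for Cxcl1 and Cxcl2 and 89 in 125 (71.2%) for Cxcl1 and Cxcl3. A match is a description of the letters only.

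The ligands of Cxcr3, which interferons induce and which attract activated T cells and natural killer cells, split. Cxcl10 had 392, 334, 241 and 384 in bone marrow arrays 1 to 4, against 169, 135, 164 and 266 in spleen arrays 1 to 4. Bone marrow array 3 lay below spleen array 4, the 1 overlap among the called ligands, but bone marrow was the higher tissue in 4 of 4 mice. Cxcl10 was 1.87-fold higher in bone marrow (limma log2 difference 0.90 ± 0.19 SE, adjusted p = 0.00486). Cxcl9 had 1279.9, 924, 792 and 869.9 in bone marrow, against 764, 755, 828 and 1236 in spleen. The groups overlapped throughout, with a single high array in each, and the log2 fold change was 0.12 (95% interval -0.25 to 0.49, limma adjusted p = 0.789). In bone marrow array 1 was highest and array 3 lowest for both genes, and in spleen array 4 was highest and array 2 lowest for both.

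The difference between the 2 genes was larger than the spread between arrays. The log2 ratio of Cxcl10 to Cxcl9 was -1.52 ± 0.25 (SD, n = 4) in bone marrow and -2.30 ± 0.14 in spleen. An exact permutation test over arrays, which set the pairing by mouse aside, gave two-sided p = 0.0286, the smallest possible for it. This ratio too was picked after the values were seen. A permutation within the mice was not run and could not give so small a p. A ratio shows unequal change and not that Cxcl9 was steady. Cxcl11 had 70.2, 64.3, 62.0 and 59.5 in bone marrow, against 58.6, 58.3, 55.1 and 56.4 in spleen. These dim values did not overlap, but the difference of 0.16 (-0.01 to 0.33) did not pass. RefSeq annotates Cxcl11 in this assembly, of strain C57BL/6J, as a transcribed pseudogene.

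The promoters of Cxcl10 and Cxcl9 are shown as the split pair of interferon-induced genes. The interferon-stimulated response element, GAAA, any 2 bases and GAAA in 1 run, was searched on both strands and is in capitals. Both genes lie on the minus strand of chromosome 5 (RefSeq, GRCm38.p6, 250 bases before to 50 after the start), at chr5:92348840-92349139 for Cxcl10 and chr5:92328030-92328329 for Cxcl9.
Cxcl10: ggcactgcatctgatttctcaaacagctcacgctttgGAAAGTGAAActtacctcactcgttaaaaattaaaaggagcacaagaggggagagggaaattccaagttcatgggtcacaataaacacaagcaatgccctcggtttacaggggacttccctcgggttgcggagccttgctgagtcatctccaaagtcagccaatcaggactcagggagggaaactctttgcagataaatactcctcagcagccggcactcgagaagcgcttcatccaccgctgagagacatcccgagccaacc
Cxcl9: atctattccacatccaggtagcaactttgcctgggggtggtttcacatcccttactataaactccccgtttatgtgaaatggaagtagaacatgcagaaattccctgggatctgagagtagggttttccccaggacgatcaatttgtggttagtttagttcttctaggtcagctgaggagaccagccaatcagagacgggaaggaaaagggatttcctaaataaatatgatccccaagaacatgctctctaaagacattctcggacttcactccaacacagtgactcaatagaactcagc
Cxcl10 holds the motif once, as GAAAGTGAAA beginning 213 bases before the start, and these letters are not in the window of Cxcl9. The motif was found in 3.44% of all promoters, and among the 23 ligands also in those of Ccl19 and Cxcl14.

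The other CXC ligands included 2 called genes at low intensity. Cxcl12, the stromal ligand of Cxcr4 that retains cells in the marrow, had 117, 127, 108 and 94.5 in bone marrow arrays 1 to 4, against 72.3, 79.2, 68.1 and 84.6 in spleen arrays 1 to 4. The groups did not overlap, and Cxcl12 was 1.46-fold higher in bone marrow (limma log2 difference 0.55 ± 0.10 SE, adjusted p = 0.00209). The 10 stromal and endothelial markers summed to 2070 to 2257 in bone marrow arrays and 2270 to 2333 in spleen arrays. Pecam1, the 1 marker called lower, averaged 720 in bone marrow, against 1105 in spleen. Eng (334 in bone marrow, 167 in spleen) and Kitl (29.6 and 23.4) were called higher, and 7 did not pass. The part of these cells in the Cxcl12 difference was not tested. Cxcl14, a tissue chemokine of skin and other epithelia, had 102, 104, 118 and 108 in bone marrow, against 79.1, 92.0, 88.0 and 93.8 in spleen. Its 1.22-fold difference (0.29 ± 0.08 SE, limma adjusted p = 0.0269) was small, and its call ended with the mouse as a replicate block (adjusted p = 0.0525) and without bone marrow array 3 or 4 or spleen array 1 or 3 (adjusted p up to 0.0895). Cxcl13, which draws B cells to follicles through Cxcr5, had a log2 fold change of -0.22 (95% interval -0.46 to 0.02), and the mucosal Cxcl17 had -0.06 (-0.27 to 0.15).

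Of the 7 measured CC ligands that serve homing or T cell attraction, Ccl20 was called. Ccl20, the ligand of Ccr6, had 102, 89.8, 106 and 99.1 in bone marrow arrays 1 to 4, against 79.8, 79.8, 80.2 and 84.9 in spleen arrays 1 to 4. The groups were narrow and did not overlap, and the difference was 1.22-fold (limma log2 difference 0.29 ± 0.08 SE, adjusted p = 0.0196). The call ended with the replicate block (adjusted p = 0.0547) and without bone marrow array 1 or 3 or spleen array 1 or 2 (adjusted p up to 0.0665).

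The remaining homing ligands did not pass. Ccl17 and Ccl22, the ligands of Ccr4 that mature dendritic cells release to attract T cells, had log2 fold changes of 0.07 (95% interval -0.17 to 0.30) and -0.10 (-0.38 to 0.19), although 10 of 12 genes of dendritic cell maturation were lower in bone marrow. Ccl19, a ligand of Ccr7, had 133, 133, 129.7 and 126 in bone marrow, against 136, 158, 146 and 142 in spleen. Each bone marrow array was below each spleen array, but the difference of -0.16 (-0.33 to 0.0032, limma adjusted p = 0.199) did not pass. Ccl19 has near-identical copies in the mouse genome, and 2 of its 5 probe sets held identical values. Ccl25, the ligand of Ccr9, had 0.23 (-0.10 to 0.56), Ccl28, a mucosal ligand, -0.04 (-0.24 to 0.16) and Ccl1, the ligand of Ccr8, 0.01 (-0.18 to 0.20).

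Cxcl16 and Cx3cl1 are the chemokines that can stay anchored in the membrane of the cell that makes them. Cxcl16, which binds Cxcr6 on T cells and also acts as a scavenger receptor, had 1401, 1443, 1391 and 1427 in bone marrow arrays 1 to 4, against 890.3, 824, 923 and 971 in spleen arrays 1 to 4. It had a spread of 0.02 (SD of log2 intensity) in bone marrow, and the groups were well apart. Cxcl16 was 1.57-fold higher in bone marrow (limma log2 difference 0.65 ± 0.08 SE, adjusted p = 3.95e-05). Cx3cl1, the ligand of Cx3cr1, had 121, 94.0, 106 and 108 in bone marrow, against 108, 109, 89.0 and 109 in spleen. These overlapped, with a log2 fold change of 0.05 (95% interval -0.17 to 0.26, limma adjusted p = 0.863).

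Xcl1, which natural killer cells and CD8 T cells make to attract Xcr1-bearing dendritic cells, rested on a single array. It had 236, 81.9, 85.9 and 91.1 in bone marrow arrays 1 to 4, against 106, 95.4, 96.8 and 105 in spleen arrays 1 to 4. Bone marrow array 1 was high, and the other 3 bone marrow arrays lay below every spleen array. The log2 fold change was 0.14 (95% interval -0.43 to 0.71, limma adjusted p = 0.846) with all arrays and -0.22 without bone marrow array 1 (adjusted p = 0.116). The 10 measured T cell and NK cell markers summed to 1864, 1538, 1380 and 1870 in bone marrow, against 3373, 3267, 3418 and 3523 in spleen. Among the bone marrow arrays, Cd3d, Cd3e, Cd3g, Il2rb, Nkg7 and Klrb1c were highest in array 1. Klrd1, Ncr1 and Gzma were highest in array 4, and Cd5 in array 3. The part of T cells and NK cells in the Xcl1 value was not tested.

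**Figure D4:**
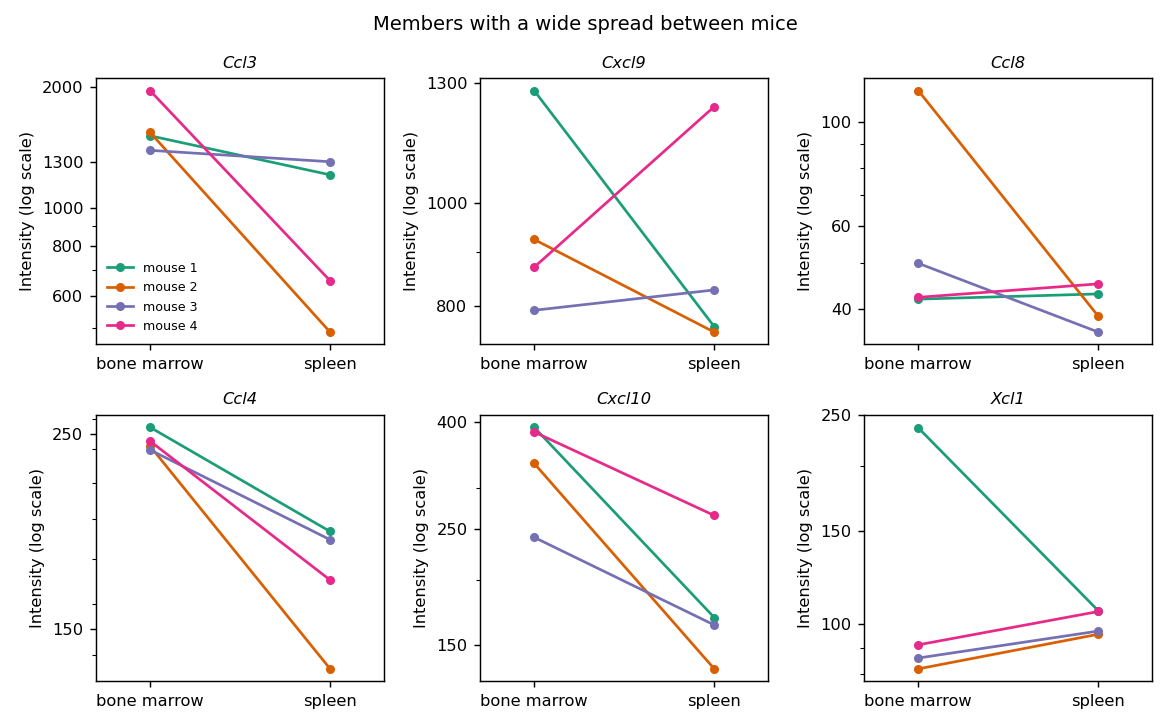
Array intensity (log scale) of 6 ligands by mouse: Xcl1, Ccl8 and Ccl3, which had the widest spreads within a tissue, with Ccl4, Cxcl9 and Cxcl10. Each line joins the bone marrow array (left) and the spleen array (right) of 1 mouse. Ccl3 and Ccl4 are lowest in the spleen of mice 2 and 4, Cxcl10 is higher in bone marrow in 4 of 4 mice while Cxcl9 is in 2, and Ccl8 and Xcl1 each have 1 high bone marrow array.

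The spread within a group was slightly wider for the ligands than for genes at large. The median SD of log2 intensity was 0.14 over the 34 ligands and 0.12 over all genes in bone marrow, and 0.15 and 0.13 in spleen. The widest ligands were Xcl1 (0.73) and Ccl8 (0.70) in bone marrow and Ccl3 (0.68) in spleen. For the 21 ligands that did not pass, the 95% interval lay within 0.5 of 0 on the log2 scale for 18 and within 1 for 20. Ccl8 was the exception to the wider bound, and these intervals do not exclude smaller differences, nor do they speak for transcripts hidden in the background.

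The 2 platelet chemokines varied widely between arrays. Pf4 had 529, 1529.9, 989 and 302 in bone marrow arrays 1 to 4, against 65.9, 90.2, 81.5 and 575 in spleen arrays 1 to 4. Spleen array 4 stood among the bone marrow arrays, and the log2 fold change was 2.44 ± 0.62 SE (limma adjusted p = 0.0137) with all arrays and 3.16 without it (adjusted p = 0.000156). Ppbp had 135, 160.1, 1233 and 124 in bone marrow, against 99.6, 139.8, 111 and 1279.9 in spleen. It was high in 1 array of each tissue, and its log2 fold change was 0.19 (95% interval -1.60 to 1.97, limma adjusted p = 0.943). Of 5 measured platelet and megakaryocyte markers, a list that holds both genes, Pf4 was the 1 called.

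On the receiving side, 4 of 17 measured chemokine receptors were higher in bone marrow and 5 lower, and of 5 atypical receptors, which bind chemokines without the usual signalling, none was higher and 2 were lower. Ccr1, the receptor of Ccl3, Ccl5, Ccl6 and Ccl9, averaged 166 in bone marrow, against 56.5 in spleen (limma log2 difference 1.56 ± 0.15 SE, adjusted p = 6.47e-06). Cxcr2, the receptor of Cxcl2, averaged 249.9 in bone marrow, against 45.8 in spleen (2.45 ± 0.17, limma adjusted p = 3.43e-07), and neutrophils, whose markers were higher in the same arrays, are known for it. Ccr2, the receptor of Ccl2, was higher by 2.80 on the log2 scale. Ccr6, the receptor of Ccl20, was lower, with 68.2 in bone marrow, against 277 in spleen (-2.02 ± 0.16, limma adjusted p = 1.18e-06). Its ligand Ccl20 was called higher, but by only 1.22-fold and at a mean at or below the olfactory receptor level. That call ended in several alternatives.

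Receptors of 4 further called ligands did not pass. Cxcr3, the receptor of Cxcl10, averaged 627 in bone marrow and 623 in spleen (95% interval of the log2 difference -0.32 to 0.34), and Cxcr6, the receptor of Cxcl16, 71.6 in bone marrow and 78.9 in spleen (-0.35 to 0.07). Cxcr4, the receptor of Cxcl12, averaged 4166 in bone marrow, against 3235 in spleen (0.36 ± 0.16 SE, limma adjusted p = 0.158) and passed with the mouse as a replicate block (adjusted p = 0.0145) or without bone marrow array 2 (0.0491). Ccr3, the receptor of Ccl24, had 179, 670.4, 179.7 and 152 in bone marrow arrays 1 to 4, against 118, 100.5, 116 and 137 in spleen arrays 1 to 4. Bone marrow array 2, the array with high Ccl8, was the highest for Ccr3 too. Its log2 fold change of 1.03 (limma adjusted p = 0.0679) became 0.54 without that array (adjusted p = 0.00564), and Ccr3 also passed without bone marrow array 4 (adjusted p = 0.0342), with the replicate block (0.0457) or with array weights (0.0488). Basophil, mast cell and eosinophil markers summed to 1479, 1073, 2712 and 1836.5 in bone marrow arrays 1 to 4, lowest in array 2. The part of these cells in the Ccr3 values was not tested.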

How the data were processed

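RNA of sorted dendritic cells from 4 mice was hybridised to 8 arrays, 4 of bone marrow and 4 of spleen. The authors deposited 1 linear intensity per probe set and array, and the submitters' processing notes name Affymetrix Expression Console 1.4. No label states the background correction, normalization or summarization. Array medians of the deposited intensities lay between 125 and 135. Per the labels' protocols, cDNA came from a kit for very small RNA inputs.

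Of 35556 probe sets, 21789 had 1 gene symbol in the platform annotation, 1621 had several and 12146 none; the first gave 19938 genes, by the brightest probe set per gene. The Entrez genes of all 34 ligands had the same symbol in RefSeq. Intensities were converted to log2 and tested by lmFit and eBayes of limma 3.58.1 under R 4.3.3, with no filter, bone marrow minus spleen, with Benjamini-Hochberg adjustment at 0.05. The fit was tested on simulated data. The number of arrays limits the precision, and pairing by mouse comes from the labels, where the bone marrow and spleen samples of a replicate share an animal number and the design names 4 mice. Deviations of same-numbered arrays from their group means correlated at 0.0962, -0.0877, -0.178 and -0.0544. Promoter letters came from RefSeq, GRCm38.p6, for 23 ligands, and were aligned with Biopython 1.88 (match 1, mismatch -1, gap opening -3, gap extension -1).

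Every ligand is accounted for; receptors are named where they bind a called ligand. The ligands and gene lists were chosen with earlier results of these data known. Alternatives were quantile normalization, median centring, 2 filters on dim genes, the mean of probe sets, an intensity trend, array weights, the mouse as a replicate block, and leaving out each array in turn.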

Additional observations from a re-analysis of the deposited data

Results flagged for a closer look

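In 5 of the 68 groups of 4 arrays (34 ligands in 2 tissues), 1 array stood far from the other 3, by Dixon's test at its 95% critical value on log2 intensity. Chance gives this in about 1 in 20 groups. Xcl1 was at 236 in bone marrow array 1, with the other 3 bone marrow arrays between 81.9 and 91.1. Ccl5 was at 623 in bone marrow array 4, with the others between 419 and 446. Ccl17 was at 183 in bone marrow array 4, with the others between 154 and 158. Ccl20 was at 84.9 in spleen array 4, with the others between 79.8 and 80.2, and Cx3cl1 was at 89.0 in spleen array 3, with the others between 108 and 109.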

How the results depend on the processing

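Of the 13 called ligands, 10 stayed called in every alternative that measured them; the exceptions were Ccl3, Ccl20 and Cxcl14, and no uncalled ligand became called. The count of ligands called higher was 12 of 34, 10 with the replicate block, 10 to 12 with 1 array left out, 9 of the 21 measured without genes at or below the olfactory receptor level and 7 of the 18 measured without the dimmest 40% of genes, where fewer ligands were tested. The 9 include Ccl24 and Cxcl14, whose spleen arrays all lay below the olfactory receptor level. Ccl5 was the 1 ligand called lower throughout. Where a sign changed, the value was -0.22 for Xcl1 (without bone marrow array 1), as low as -0.60 for Ppbp (without bone marrow array 3) and between -0.10 and 0.076 for the others. Ccl11 had a log2 fold change of 0.0054 with median centring, Cxcl15 -0.013 and Cxcl5 1.2e-05 with array weights, and Cxcr3 -0.0084 with quantile normalization and -0.0011 with array weights. With 1 array left out, the log2 fold change ranged from -0.043 to 0.073 for Ccl1, -0.091 to 0.076 for Ccl11, -0.012 to 0.16 for Ccl17, -0.18 to 0.031 for Ccl22, -0.083 to 0.033 for Ccl28, -0.025 to 0.11 for Cx3cl1, -0.017 to 0.044 for Cxcl15, -0.12 to 0.0095 for Cxcl17, -0.058 to 0.064 for Cxcl3, -0.043 to 0.020 for Cxcl5, -0.027 to 0.28 for Cxcl9, -0.22 to 0.29 for Xcl1, -0.10 to 0.15 for Cxcr3 and -0.60 to 1.05 for Ppbp.

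The arrays give no detection call, the dim ligands lie near the level of genes these cells are not known to use, and the background correction is not stated in the labels. With 4 mice, small differences can miss the threshold. Sorted fractions of the 2 tissues differ in markers of other cells, and tissue and fraction cannot be told apart.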
